A study of Homo sapiens with 24 samples.

Results

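The 8 clade B serpin genes SERPINB1, SERPINB2, SERPINB3, SERPINB4, SERPINB5, SERPINB7, SERPINB8 and SERPINB13 were followed in a pair of human breast cancer cell lines during methionine (Met) stress. They are the 8 entries of the 26645 in the gene count table that carry these symbols. The group was chosen by the 12 h rise of SERPINB3 and SERPINB4 in one of the lines, so the values of that rise are given as a description, without a test. RNA was sequenced in 24 libraries, with 3 libraries in each of 8 groups. MB468 (MDA-MB-468) is a triple-negative breast cancer line that needs Met to proliferate, and MB468res-R8 (R8) is 1 clone derived from it by long culture without Met that grows when Met is replaced by its precursor homocysteine (Hcy). At 0 h, both lines were in Met+ medium with 100 µM Met, and at 0.5, 2 and 12 h both had been moved to Met-Hcy+ medium with 370 µM Hcy and no Met. All groups shared the same base medium with dialyzed serum, glutamine, cysteine and vitamin B12. Met+ medium was sampled at the start alone, so the medium and the time since the switch cannot be told apart. The labels number the 3 libraries of a group and do not say whether they were separate cultures, so p-values measure the spread between these libraries, which may be technical.

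Serpins are protease inhibitors that trap their target when it cuts an exposed loop near their C-terminal end, and a few members of the fold have lost this activity. Clade B serpins lack a classical signal peptide and act mainly inside the cell, where they are thought to protect it from its own lysosomal and granule proteases. In stratified squamous epithelium several of them rise with keratinocyte differentiation, and SERPINB3 and SERPINB4 were first described as squamous cell carcinoma antigens. All but SERPINB1, which is on chromosome 6, lie in 1 cluster on chromosome 18.

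On GRCh38, GENCODE places the cluster between SERPINB5 at chr18:63476958-63505085 (plus strand) and SERPINB8 at chr18:63970029-64019779 (plus strand). SERPINB13 at chr18:63586989-63604639 (plus strand) is followed by SERPINB4 at chr18:63637259-63644256 and SERPINB3 at chr18:63655197-63661893, both on the minus strand. SERPINB7 at chr18:63752935-63805376 and SERPINB2 at chr18:63871692-63903888, both on the plus strand, complete it. SERPINB1 is at chr6:2832332-2841959 (minus strand). All 8 are protein-coding.

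SERPINB3 and SERPINB4 are neighbouring near-copies, which bears on how far their reads can be assigned. Their main transcripts are both 1707 bases long, align without gaps and match at 1633 positions (95.7% identity). Over the coding part alone the identity was 95.2%, against 70.5% between SERPINB4 and SERPINB13, the next most alike pair, and 62.3% between SERPINB1 and SERPINB5, the least alike, with gaps left out. Reads were 100 bases long, and of the 1608 windows of that length in the SERPINB3 transcript 57 (3.54%) were identical in SERPINB4, 247 (15.4%) held at most 1 difference, and the median window held 3. How reads that matched both genes were treated is not given in the sources used here. SERPINB11, which GENCODE places across SERPINB3 on the other strand, had 0 reads in every library. The 60-base coding stretch where they differ most, in the last of 8 exons, is shown because reads from it can be told apart most easily. It lies at chr18:63655819-63655878 in SERPINB3 and at chr18:63637881-63637940 in SERPINB4 (GRCh38, minus strand), and capitals mark the 10 bases that differ.
SERPINB3 coding stretch: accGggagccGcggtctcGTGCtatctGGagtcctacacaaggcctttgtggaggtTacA
SERPINB4 coding stretch: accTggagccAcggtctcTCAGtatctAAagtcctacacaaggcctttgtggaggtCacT

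The 250 bases before the start of each gene are shown because both transcripts were highest in the same group of libraries. In RefSeq on GRCh38.p14 these are chr18:63661894-63662143 for SERPINB3 and chr18:63644257-63644506 for SERPINB4, both on the minus strand. They match at 98.8% of positions, and capitals mark the 3 differences, which are G126A, G201A and C228T with the SERPINB3 base first, counted from 1 at the 5′ end.
SERPINB3 promoter: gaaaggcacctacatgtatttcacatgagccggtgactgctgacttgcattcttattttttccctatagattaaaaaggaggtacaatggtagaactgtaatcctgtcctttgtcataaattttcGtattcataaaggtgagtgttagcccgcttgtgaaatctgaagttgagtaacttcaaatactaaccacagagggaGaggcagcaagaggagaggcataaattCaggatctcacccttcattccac
SERPINB4 promoter: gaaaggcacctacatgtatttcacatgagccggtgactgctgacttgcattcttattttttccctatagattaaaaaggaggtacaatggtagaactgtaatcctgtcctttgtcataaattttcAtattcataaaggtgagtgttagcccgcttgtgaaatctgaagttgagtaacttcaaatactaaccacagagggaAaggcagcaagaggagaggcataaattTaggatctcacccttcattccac

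Promoter windows of the 250 bases before each start were searched on both strands for 6 motifs. RefSeq gave 10 windows for the 8 genes because SERPINB7 has 3. The AP-1 motif TGANTCA was in 6 of the 10 windows, those of SERPINB2, SERPINB5, SERPINB8 and SERPINB13 and both downstream windows of SERPINB7, and in 6.57% of all 35116 promoter windows. The STAT motif TTCNNNGAA was in 3 of 10 (SERPINB1, SERPINB7 and SERPINB8) against 6.57% of all windows, and the TATA box TATAAA was in 3 of 10 (SERPINB2, SERPINB7 and SERPINB8) against 10.7%. The STAT motif with 4 in place of 3 free bases between its arms, the ATF4 composite motif TGATGNAA and the E-box CACGTG were in 0 of 10, and in 5.38%, 3.14% and 6.34% of all windows. None of the 6 strings was in the SERPINB3 or SERPINB4 window. These matches describe the letters of the windows alone.

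Libraries held from 11745553 to 36496655 counts (median 20503827). All 7 epithelial markers checked were present in every library, their summed level ranging from 7410 to 10384 CPM (counts-per-million of the TMM-scaled library). Of 8 markers of other cell types, the leukocyte genes PTPRC and CD3E and the fibroblast collagen gene COL1A2 did not exceed 0.199, 0.0830 and 0.0616 CPM. PDGFRB, VWF and PECAM1 reached at most 0.656, 1.56 and 2.67 CPM. CD68 was present in every library, from 2.85 to 10.0 CPM, and COL1A1 ranged from 14.6 to 73.2 CPM. The summed level of the 8 ranged from 20.9 to 22.1 CPM in MB468 at 12 h and from 61.6 to 82.4 CPM in R8 at 0 h. As a check of the triple-negative label, PGR reached at most 0.0983 CPM, ESR1 4.15 to 22.6 CPM and ERBB2 38.3 to 97.3 CPM. Replicate 2 of MB468 at 2 h stood apart with 8251 counts of the small nuclear RNA RN7SK, and all member calls at 2 h in MB468 were also made without it.

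Levels can be compared between genes only per length. Per kb of exon, SERPINB5 and SERPINB1 were the most abundant members at 0 h in both lines and SERPINB13 the least. In MB468 at 0 h SERPINB13 and SERPINB4 had 1 read each, so their order there rests on exon length alone. SERPINB5 (maspin, a non-inhibitory serpin known as a tumour suppressor in mammary epithelium) averaged 29.1 CPM per kb in MB468 and 37.7 in R8 at 0 h. SERPINB1, which inhibits neutrophil elastase and cathepsin G, averaged 20.3 and 27.3 CPM per kb. SERPINB7, a serpin of the upper epidermis, averaged 3.18 CPM per kb in MB468 and 9.21 in R8, and reached 26.9 in R8 at 12 h, level with the 27.2 of SERPINB1 there. SERPINB8, which inhibits the proprotein convertase furin, averaged 4.47 and 2.99 CPM per kb at 0 h, and SERPINB2, plasminogen activator inhibitor type 2, averaged 2.92 and 0.759. SERPINB3, an inhibitor of lysosomal cysteine proteases such as cathepsins L, K and S, and SERPINB4, which inhibits the chymotrypsin-like proteases cathepsin G and mast cell chymase, were near the limit of detection at 0 h. They averaged 0.124 and 0.00592 CPM per kb in MB468 and 0.144 and 0.131 in R8, and in R8 at 12 h they reached 1.63 and 1.44. Per kb of the main transcript the R8 means were 0.144 and 0.151 at 0 h and 1.63 and 1.66 at 12 h, so their order in R8 depended on the length used. SERPINB13 (hurpin, an inhibitor of cathepsins L and K) did not exceed a group mean of 0.0702 CPM per kb. The bulk libraries cannot tell fewer expressing cells from less RNA per cell.

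**Figure D1:**
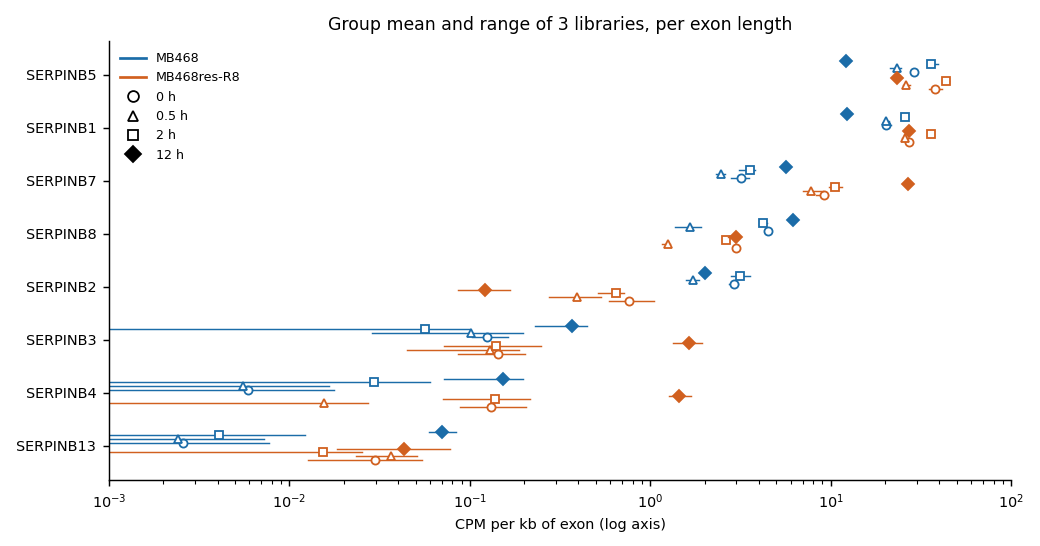
Levels of the 8 genes in each group as CPM per kb of exon on a log axis, with symbols for the mean of 3 libraries, lines for their range (cut at the left edge where a library was at 0), colours for the cell line and filled diamonds for 12 h. SERPINB5 and SERPINB1 lie to the right in all groups, SERPINB7 in R8 at 12 h (26.9) joins them, and SERPINB3 and SERPINB4 pass 1 CPM per kb only in R8 at 12 h.

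edgeR's filter on low counts kept 7 of the 8 genes among 14741 tested. SERPINB13 was left out, with 72 counts over all libraries, at most 11 in one and 0 in 7. SERPINB3 passed the filter's cutoff in 5 libraries, all at 12 h, and SERPINB4 in 3, the R8 libraries at 12 h. Both were thus kept through the 12 h libraries in which they were high, SERPINB4 through R8 at 12 h alone. Counts over the 7 include them for that reason. At 0 h, 6 of the 7 differed between the lines (4 higher and 2 lower in R8) at an edgeR adjusted p under 0.05, where 53.5% of all tested genes were called. With spike-in totals as library sizes 2 were higher and 2 lower, where 7639 of the 14741 genes were called, 15% of them higher in R8. In MB468, 4 fell and 0 rose at 0.5 h (33.9% of all genes called), 2 rose and 0 fell at 2 h (16.3%), and 4 rose, SERPINB3 and SERPINB4 among them, and 3 fell at 12 h (70.8%). In R8, 5 fell and 0 rose at 0.5 h (33.7%) and 2 rose and 0 fell at 2 h (4.37%). At 12 h in R8, the contrast by which the group was chosen, log2 fold changes ranged from -2.68 (SERPINB2) to 3.50 (SERPINB3 and SERPINB4), without a test, and 61.3% of all genes were called. Other comparisons of SERPINB3 and SERPINB4 with R8 at 0 h use libraries of that contrast, so they are not independent of the choice. For the difference between the lines in the response, edgeR called 0 members at 0.5 h (2.9% of all genes) and 0 at 2 h (5.07%). At an unadjusted p under 0.05 there were 1 and 0, and DESeq2 called 0 and 0. At 12 h that difference, which contains the chosen contrast, ranged from -2.14 (SERPINB2) to 2.00 (SERPINB3), without a test, and 56.5% of all genes were called. The median log2 fold change of the 7 was 0.38 between the lines at 0 h, against 0.00 for all tested genes, and -0.40, 0.15 and 0.46 in MB468 at 0.5, 2 and 12 h, against 0.01 at each time.

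**Figure D2:**
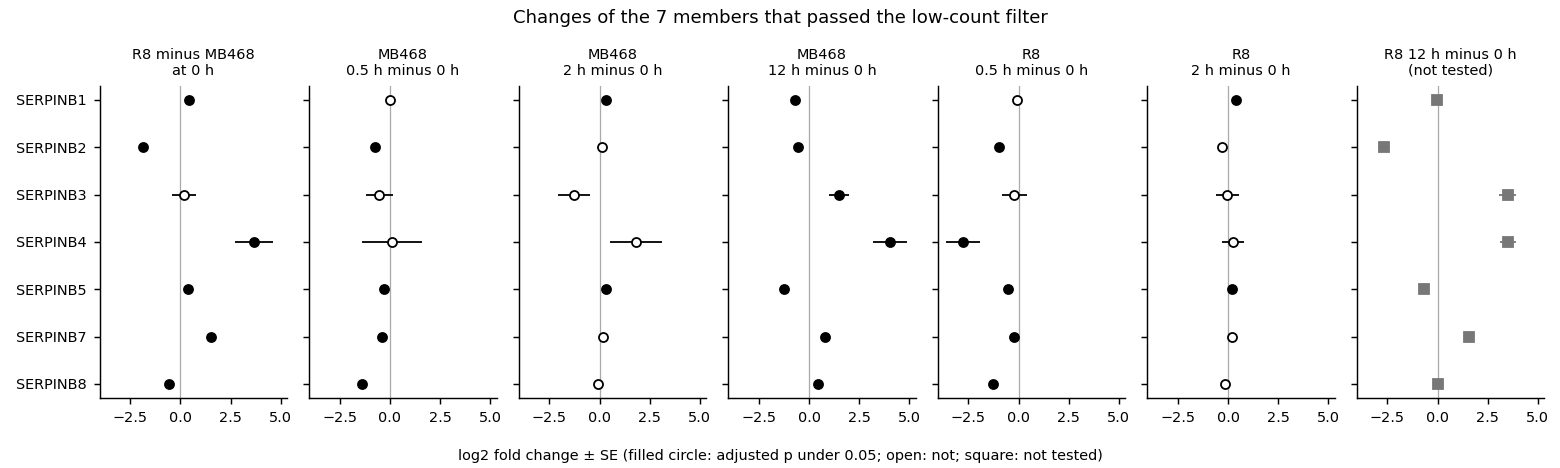
Log2 fold change with its standard error for the 7 genes tested, in 7 comparisons named above each panel. Filled circles passed an adjusted p of 0.05, open circles did not, and the grey squares of the last panel (R8 at 12 h) are values without a test. At 0.5 h no gene is called higher in either line, and at 12 h SERPINB3, SERPINB4 and SERPINB7 lie to the right of 0 in both.

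SERPINB3 was barely detected before 12 h and was highest in R8 at 12 h. MB468 libraries held 7, 5 and 3 reads at 0 h (0.276, 0.175 and 0.185 CPM), 4, 1 and 4 at 0.5 h, 2, 2 and 0 at 2 h, and 27, 16 and 14 at 12 h (0.725, 0.759 and 0.390 CPM). R8 libraries held 7, 3 and 6 reads at 0 h (0.244, 0.148 and 0.345 CPM), 2, 6 and 5 at 0.5 h, 9, 6 and 2 at 2 h, and 58, 55 and 80 at 12 h (2.28, 2.75 and 3.32 CPM). All 3 libraries at 12 h were above all earlier libraries of their line, and the R8 range at 12 h lay above that of MB468. The 6 groups before 12 h overlapped their neighbours in the order of levels. In MB468, the rise from 0 h to 12 h was 1.50 ± 0.49 (log2, SE, edgeR adjusted p = 0.00685, or 0.00508 without the filter on low counts), and the reads pooled over 3 libraries, 57 against 15, gave a ratio of 2.83 per effective library size (exact 95% interval 1.58 to 5.38, counting error only). In R8, as a description of the chosen contrast, 193 reads against 16 gave a ratio of 11.5 and the log2 fold change was 3.50 ± 0.43. The lines did not differ beyond their spread at 0 h (0.17 ± 0.60, adjusted p = 0.831). SERPINB3 was called at neither 0.5 nor 2 h in either line, and the 12 h response of R8 exceeded that of MB468 by 2.00 ± 0.72, given as a description.

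SERPINB4 was nearly absent from MB468 before 12 h and present at a few reads in R8. MB468 libraries held 0, 1 and 0 reads at 0 h, 1, 0 and 0 at 0.5 h, 2, 0 and 1 at 2 h, and 14, 3 and 14 at 12 h (0.376, 0.142 and 0.390 CPM). R8 libraries held 5, 4 and 7 reads at 0 h (0.174, 0.197 and 0.402 CPM), 1, 0 and 1 at 0.5 h, 3, 15 and 4 at 2 h, and 64, 66 and 65 at 12 h (2.52, 3.30 and 2.70 CPM). The R8 range at 12 h lay above all others, while the MB468 range at 12 h overlapped those of R8 at 0 and 2 h. At 0 h, 16 reads in R8 against 1 in MB468 gave a ratio of 16.9 (2.62 to 708, adjusted p = 0.00103 by edgeR, or 0.000557 without the filter on low counts). From 0 h to 12 h in MB468, 31 reads against 1 gave 23.1 (3.84 to 940, adjusted p = 5.90e-05 by edgeR). SERPINB4 passed the low-count filter only through the R8 libraries at 12 h, and this rise in MB468 was also called without the filter. In R8 at 0.5 h, 2 reads against 16 gave 0.131 (0.0146 to 0.557, adjusted p = 0.00938), and this fall was not called without R8 0 h replicate 3 (adjusted p = 0.0523). The comparison of the lines at 0 h and that of R8 at 0.5 h use the R8 0 h libraries. These are part of the contrast that chose the group, so their p-values are not independent of the choice. In R8 at 12 h, again as a description, 195 reads against 16 gave 11.6, close to the value for SERPINB3. The log2 fold change was 3.50 ± 0.41. The 12 h response of SERPINB4 differed by -0.55 ± 0.81 between the lines.

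Because reads may pass between the near-copies, the counts of SERPINB3 and SERPINB4 were also summed into 1 feature. The sum was higher in R8 than in MB468 at 0 h by 1.08 (log2, edgeR adjusted p = 0.0423) and rose in MB468 by 2.00 at 12 h (adjusted p = 2.40e-05). The sum was not called in R8 at 0.5 h (-1.01, adjusted p = 0.0897), where SERPINB4 alone was. The 0 h and R8 0.5 h values of the sum also use the R8 0 h libraries of the chosen contrast. In R8 at 12 h the sum was 3.51 higher than at 0 h. Neither gene had the steepest 12 h rise of all genes in R8. Among all 14741 tested genes they ranked 10 (SERPINB4) and 11 (SERPINB3) by log2 fold change, and among called genes with at least 1 CPM at 12 h and groups that did not overlap they ranked 2 and 3, after LYPD1 (3.98) and before TGM2 (3.07), the tissue transglutaminase.

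**Figure D3:**
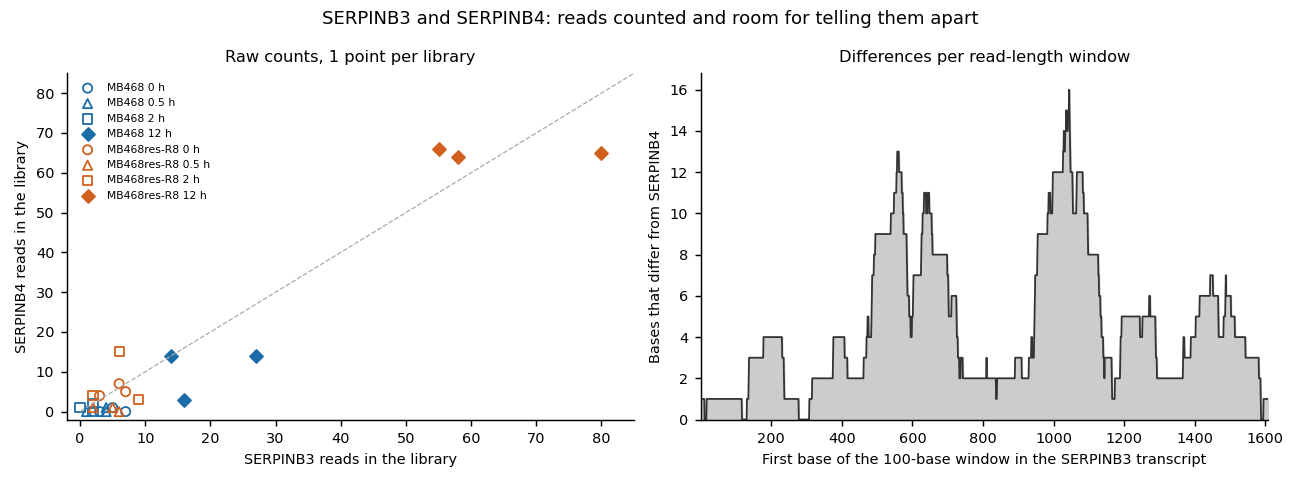
Left, raw reads of SERPINB3 (x axis) and SERPINB4 (y axis), 1 point per library, with a dashed line of equal counts. The 3 R8 libraries at 12 h lie apart from the rest, at 55 to 80 and 64 to 66 reads. Right, number of bases that differ from SERPINB4 in each 100-base window of the SERPINB3 transcript, from 0 to 16, plotted against the window's first base.

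SERPINB13, whose coding part is the most like that of SERPINB3 and SERPINB4, was the one member that was higher in MB468 than in R8 by mean at 12 h while lower at the earlier times. MB468 libraries held 0, 1 and 0 reads at 0 h, 1, 0 and 0 at 0.5 h, 0, 0 and 1 at 2 h, and 10, 8 and 11 at 12 h. R8 libraries held 3, 5 and 1 reads at 0 h, 6, 2 and 3 at 0.5 h, 2, 4 and 0 at 2 h, and 9, 3 and 2 at 12 h. In MB468 the 12 h libraries stood above all earlier ones, and in R8 the groups overlapped. The pooled reads gave 29 against 1 in MB468, a ratio of 21.6 (3.58 to 881), and in a fit without the filter on low counts this was called (adjusted p = 0.000650). In R8, 14 against 9 gave 1.49 (0.599 to 3.89), a difference that was not detectable at this depth.

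SERPINB7 was higher in R8 than in MB468 at every time and rose in both lines by 12 h. Loss of this gene causes a palmoplantar keratosis in people, and it is made in the upper epidermis. In MB468 it was at 8.48, 9.35 and 7.35 CPM at 0 h, 6.11, 6.83 and 6.51 at 0.5 h, 10.1, 8.20 and 9.80 at 2 h, and 14.6, 15.1 and 14.9 at 12 h. R8 libraries were at 25.4, 22.0 and 25.5 CPM at 0 h, 23.8, 19.4 and 18.4 at 0.5 h, 27.3, 25.9 and 30.6 at 2 h, and 70.4, 74.2 and 68.5 at 12 h. The ranges of the lines did not overlap at any time, and even the lowest R8 library (18.4) was above the highest MB468 library (15.1). At 0 h the difference was 1.51 ± 0.09 on the log2 scale (edgeR adjusted p = 3.18e-17). In MB468, SERPINB7 fell by 0.40 at 0.5 h (± 0.11, adjusted p = 0.00491), which was not called without MB468 0 h replicate 2 (adjusted p = 0.0586). It was not called at 2 h and rose by 0.80 ± 0.10 at 12 h (adjusted p = 1.27e-09). In R8, the 0.5 h libraries overlapped those of 0 h and the log2 fold change was -0.23 ± 0.09 (adjusted p = 0.0310), a call that was lost without R8 0 h replicate 1 or 3 or without R8 0.5 h replicate 2 or 3 (adjusted p from 0.102 to 0.201). The 12 h value in R8 was 1.55 ± 0.08 above 0 h, and the mean there was 4.79 times that of MB468, against 2.89 times at 0 h.

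SERPINB5 fell within 0.5 h, was above its starting level at 2 h and was lowest at 12 h in each line. In MB468 it was at 107, 108 and 112 CPM at 0 h, 91.4, 89.3 and 79.3 at 0.5 h, 129, 130 and 148 at 2 h, and 46.1, 46.4 and 44.1 at 12 h. R8 libraries were at 154, 138 and 131 CPM at 0 h, 103, 96.9 and 93.7 at 0.5 h, 157, 170 and 161 at 2 h, and 86.1, 92.2 and 84.4 at 12 h. None of the 0.5, 2 or 12 h ranges overlapped the 0 h range of the same line. The log2 fold changes in MB468 were -0.32 ± 0.06 at 0.5 h (edgeR adjusted p = 3.65e-05), 0.32 ± 0.06 at 2 h (adjusted p = 7.09e-05) and -1.26 ± 0.06 at 12 h (adjusted p = 3.75e-20). The 2 h rise in MB468 turned to -0.11 with spike-in totals as library sizes, a scaling that lowered the median of all genes by 0.42 there. In R8 the values were -0.53 ± 0.06 at 0.5 h (adjusted p = 1.30e-09) and 0.20 ± 0.06 at 2 h (adjusted p = 0.0229), and -0.69 ± 0.06 at 12 h without a test. The 2 h call in R8 was lost without R8 0 h replicate 2 or 3 or R8 2 h replicate 2 (adjusted p from 0.116 to 0.238). At 0 h SERPINB5 was 0.38 ± 0.06 higher in R8 (adjusted p = 4.60e-07), and with spike-in totals 0.07 (adjusted p = 0.686), where the median of all genes was 0.31 lower. At 12 h its mean in R8 was 1.92 times that in MB468.

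SERPINB1 was called at 0.5 h in neither line, rose at 2 h in both and by 12 h was lower than at 0 h in MB468. MB468 libraries were at 59.9, 59.6 and 65.7 CPM at 0 h, 64.5, 59.8 and 60.8 at 0.5 h, 79.0, 74.5 and 81.1 at 2 h, and 36.2, 39.2 and 37.5 at 12 h. In R8 it was at 84.6, 81.9 and 83.1 CPM at 0 h, 75.7, 78.5 and 81.4 at 0.5 h, 109, 108 and 110 at 2 h, and 79.0, 83.4 and 86.0 at 12 h. The 2 h ranges lay above those of 0 h in both lines, while the R8 ranges at 0 and 12 h overlapped. The rise at 2 h was 0.35 ± 0.05 in MB468 (log2, edgeR adjusted p = 1.02e-06) and 0.39 ± 0.05 in R8 (adjusted p = 1.06e-07). With spike-in totals the MB468 value turned to -0.08 and the R8 value was 0.35 (adjusted p = 0.375). In MB468 at 12 h SERPINB1 fell by 0.71 ± 0.05 (adjusted p = 5.51e-16), and in R8 the 12 h value was -0.01 ± 0.05. R8 exceeded MB468 by 0.44 ± 0.05 at 0 h (adjusted p = 5.26e-10), which became 0.12 (adjusted p = 0.440) with spike-in totals, and the ratio of the means was 2.20 at 12 h.

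SERPINB2 was the member most depleted in R8. Its targets are the plasminogen activators PLAU (urokinase) and PLAT (tissue type). MB468 libraries were at 8.36, 7.46 and 8.15 CPM at 0 h, 4.71, 5.11 and 4.31 at 0.5 h, 7.67, 8.54 and 9.74 at 2 h, and 5.37, 5.83 and 5.35 at 12 h. R8 libraries were at 2.86, 1.77 and 1.61 CPM at 0 h, 1.46, 1.01 and 0.756 at 0.5 h, 1.41, 1.91 and 1.97 at 2 h, and 0.236, 0.300 and 0.456 at 12 h, where 6, 6 and 11 reads remained. All R8 libraries were below all MB468 libraries. At 0 h the difference was -1.89 ± 0.18 (edgeR adjusted p = 7.58e-12), and the mean in R8 was 0.260 of that in MB468, against 0.0600 of it at 12 h. SERPINB2 fell at 0.5 h by 0.75 ± 0.17 in MB468 (adjusted p = 0.000350) and by 0.95 ± 0.23 in R8 (adjusted p = 0.000970). The R8 fall was not called without R8 0 h replicate 1 (-0.62, adjusted p = 0.0603). It was back at 0.12 ± 0.16 in MB468 at 2 h (adjusted p = 0.712), fell there by 0.54 ± 0.16 at 12 h (adjusted p = 0.00270), and was at -2.68 ± 0.28 in R8 at 12 h.

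The plasminogen activators also fell at 0.5 h. Unlike SERPINB2, they were called higher at 2 h than at 0 h in both lines. At 12 h they were lower in R8 than in MB468. PLAU averaged 56.6, 30.2, 120 and 90.4 CPM in MB468 at 0, 0.5, 2 and 12 h, and 112, 77.2, 206 and 61.5 CPM in R8. It fell at 0.5 h (-0.89 ± 0.12, edgeR adjusted p = 1.09e-05, in MB468) and rose at 2 h in both lines (1.08 ± 0.11, adjusted p = 8.21e-07, in MB468). PLAT averaged 5.84, 1.61, 12.9 and 8.52 CPM in MB468 and 5.07, 1.14, 16.4 and 1.41 CPM in R8, with a fall of 1.97 ± 0.21 at 0.5 h and a rise of 1.13 ± 0.16 at 2 h in MB468 (adjusted p = 1.93e-09 and 2.31e-06). At 12 h, SERPINB2, PLAU and PLAT were all below their 0 h mean in R8, while in MB468 SERPINB2 alone was. The 12 h response of R8 minus that of MB468 was -1.53 ± 0.15 for PLAU, -2.40 ± 0.27 for PLAT and -2.14 ± 0.33 for SERPINB2, given without a test.

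**Figure D4:**
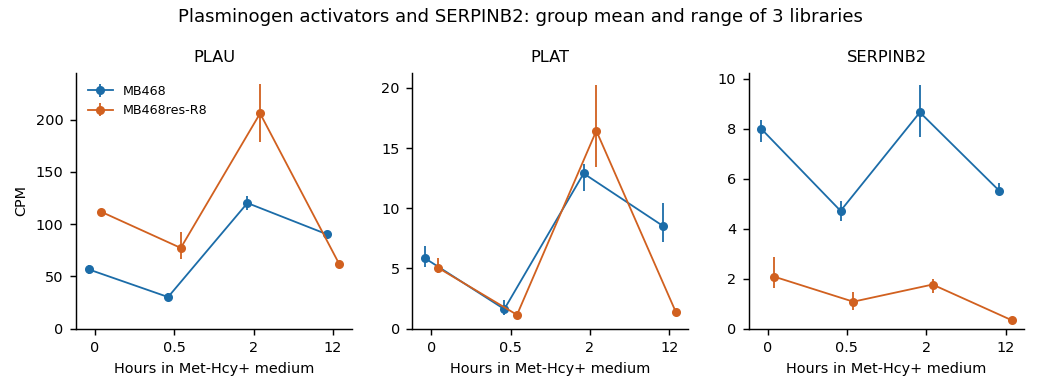
Group mean CPM (points) and range of 3 libraries (bars) of the activators PLAU and PLAT and their inhibitor SERPINB2 against time, with linear axes from 0. PLAU and PLAT dip at 0.5 h and peak at 2 h in both lines, SERPINB2 in R8 stays under 3 CPM throughout, and all 3 genes are lower in R8 than in MB468 at 12 h.

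SERPINB8 showed the deepest early fall of the members with more than a few reads per library. MB468 libraries were at 25.6, 27.0 and 24.8 CPM at 0 h, 9.77, 11.0 and 7.86 at 0.5 h, 25.6, 23.2 and 23.8 at 2 h, and 36.1, 35.8 and 35.0 at 12 h. R8 libraries were at 17.0, 17.0 and 17.6 CPM at 0 h, 7.40, 7.45 and 6.69 at 0.5 h, 15.3, 15.6 and 14.7 at 2 h, and 18.0, 15.5 and 17.9 at 12 h. In both lines the 0.5 h range lay below all others, and only in MB468 did the 12 h range lie above that of 0 h. The fall at 0.5 h was 1.41 ± 0.08 in MB468 (log2, edgeR adjusted p = 3.23e-17) and 1.26 ± 0.09 in R8 (adjusted p = 8.88e-15), and the difference of 0.16 ± 0.13 between them was not called (adjusted p = 0.678). At 2 h it was not called in either line, although with spike-in totals it was lower in MB468 (-0.51, adjusted p = 0.00214). At 12 h in MB468 it rose by 0.46 ± 0.07 (adjusted p = 3.82e-07), or by 0.23 (adjusted p = 0.154) with spike-in totals, and in R8 the value was 0.00 ± 0.08. R8 was 0.59 ± 0.08 below MB468 at 0 h (adjusted p = 2.91e-08). The exons of SERPINB8 overlap those of HMSD on the same strand and 8.47% of its 100-base windows also lie in that gene's transcripts, and for SERPINB2 24.9% of windows lie in an overlapping unnamed gene, so reads there could be assigned to either. FURIN, the target of SERPINB8, averaged 90.9 CPM in MB468 at 0 h and rose there by 0.53 ± 0.07 at 12 h (edgeR adjusted p = 4.81e-07). Its 12 h response differed between the lines by -0.59 ± 0.10 (R8 minus MB468), given without a test.

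**Figure D5:**
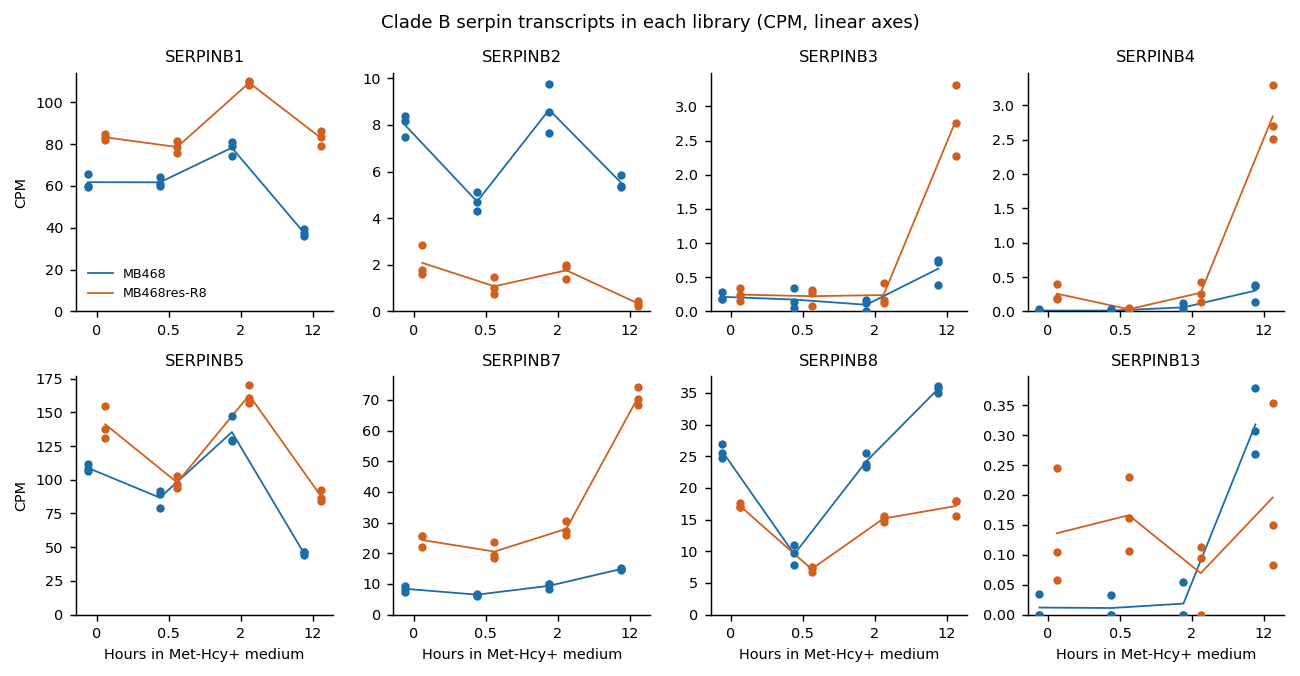
CPM of the 8 genes in each library (points) with lines joining group means, MB468 in blue and MB468res-R8 in orange, against hours in Met-Hcy+ medium. Each panel has its own linear axis from 0. SERPINB3 and SERPINB4 stand out in R8 at 12 h only, SERPINB7 is higher in R8 at all times, SERPINB2 lower, and SERPINB8 dips at 0.5 h in both lines.

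The following counts over lists stand beside the shares of all tested genes called, which were 53.5% between the lines at 0 h, 33.9%, 16.3% and 70.8% in MB468 at 0.5, 2 and 12 h, and 33.7%, 4.37% and 61.3% in R8. Counts with spike-in totals stand beside other numbers. Of 14741 genes, 7639 were then called at 0 h (15% of them higher in R8). In MB468 3287, 9511 and 8460 were called at 0.5, 2 and 12 h (14%, 2.52% and 30% of them higher). In R8 2023, 180 and 5887 were called (59%, 63.9% and 47% higher). Of the other clade B genes on the list, SERPINB9, SERPINB10, SERPINB11 and SERPINB12 were not kept by the filter, and SERPINB6, an inhibitor of trypsin-like proteases and cathepsin G, was higher in R8 at 0 h (134 against 103 CPM, 0.37 ± 0.05, edgeR adjusted p = 1.45e-08) and fell in MB468 at 12 h by 0.63 ± 0.05 (adjusted p = 6.99e-15). With spike-in totals as library sizes its difference at 0 h was 0.06 (adjusted p = 0.718). Of 13 serpins outside clade B, 9 were tested, and at 0 h 3 were higher and 1 lower in R8, or 2 and 5 with spike-in totals. SERPING1, the C1 inhibitor, was at 14.5 CPM in MB468 and 0.385 in R8 (-5.19 ± 0.23, adjusted p = 2.25e-21). In MB468, 1 of the 9 fell at 0.5 h, 1 at 2 h (5 with spike-in totals) and 3 at 12 h, and SERPINE2 alone rose at 12 h (1.39 ± 0.20, adjusted p = 1.15e-07).

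Proteases that clade B serpins inhibit were in part present. Of 14 on the list, 8 were tested, and the granule proteases CTSG and ELANE had 0 reads in every library. At 0 h 5 were higher and 0 lower in R8 (2 and 2 with spike-in totals), with a list median of 0.39 against 0.00 for all genes tested, among them CTSV (cathepsin V, 92.0 against 40.1 CPM, 1.20 ± 0.06, edgeR adjusted p = 6.41e-21) and PLAU (0.97 ± 0.11, adjusted p = 3.96e-07). CTSL, a target of SERPINB3 and SERPINB13, averaged 12.6 CPM in MB468 and 16.5 in R8. In MB468 3 fell at 0.5 h, 3 rose and 0 fell at 2 h (2 and 3 with spike-in totals), and at 12 h 3 rose and 1, CTSS, fell (-0.88 ± 0.14, adjusted p = 7.14e-07). With spike-in totals 2 rose and 2 fell in MB468 at 12 h. In R8 4 fell at 0.5 h and 4 rose at 2 h, or 3 and 2 with spike-in totals.

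Genes of the cornified envelope and squamous differentiation were called in both directions. Of 48 listed, 34 were tested, and at 0 h 18 were higher and 13 lower in R8 (list median 0.22 against 0.00 for all genes), or 14 and 14 with spike-in totals (-0.09 against -0.31). IVL (involucrin, a cornified envelope protein) was at 14.5 CPM in R8 and 0.594 in MB468 (4.62 ± 0.23, edgeR adjusted p = 3.01e-16), and SPRR1B was also higher (4.57 ± 0.53, adjusted p = 2.45e-09). PI3, the elastase inhibitor elafin, was at 11.4 CPM against 138 (-3.58 ± 0.06, adjusted p = 2.89e-36), and S100A7 (psoriasin) at 15.9 against 121 CPM. In MB468 2 rose and 12 fell at 0.5 h, 17 rose and 0 fell at 2 h, and 13 rose and 9 fell at 12 h, where KRT6A rose by 3.20 ± 0.17 (adjusted p = 2.44e-17), SCEL (sciellin) rose by 2.26 ± 0.13 and KRT4 fell by 1.85 ± 0.06. In R8 2 rose and 16 fell at 0.5 h, 12 rose and 0 fell at 2 h, and at 12 h 12 were higher and 16 lower. With spike-in totals the counts in MB468 were 0 and 13 at 0.5 h, 5 and 11 at 2 h, and 7 and 11 at 12 h, so the excess of rises at 2 h and 12 h turned, and in R8 they were 0 and 8 at 0.5 h, 4 and 0 at 2 h, and 11 and 11 at 12 h. Under both scalings more of these genes were called lower than higher at 0.5 h, and with TMM factors the list median then was -0.18 in MB468 and -0.23 in R8, against 0.01 and 0.00 for all genes.

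Among 18 transcription factors of squamous cells, 16 were tested. In MB468 8 rose and 3 fell at 0.5 h, 9 rose and 0 fell at 2 h, and 6 rose and 4 fell at 12 h, while with spike-in totals 4 rose and 3 fell at 0.5 h, 4 rose and 4 fell at 2 h, and 6 rose and 4 fell at 12 h. ZNF750, a regulator of terminal epidermal differentiation, rose by 2.44 ± 0.21 at 0.5 h and 2.98 ± 0.21 at 2 h (edgeR adjusted p = 6.60e-08 and 1.30e-08). TP63, the master factor of squamous epithelium, was lower in R8 at 0 h (12.1 against 19.0 CPM, -0.66 ± 0.09, adjusted p = 1.34e-07) and KLF4 was higher (30.1 against 8.57 CPM, 1.83 ± 0.13, adjusted p = 6.63e-12). In R8, ZNF750 also rose at 0.5 h (2.27 ± 0.20, adjusted p = 5.82e-08), while at 12 h ZNF750, GRHL3 and KLF4 were at 5.09, 5.60 and 7.48 CPM against 29.7, 29.0 and 30.1 at 0 h.

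The genes whose log2 CPM followed that of a member most closely over the 24 libraries were, by Pearson r, SRM (0.99), MRPL32 (0.98) and MAPKAPK3 (0.98) for SERPINB7, KDR (0.98), ATP6V0A4 (0.97) and CD38 (0.96) for SERPINB2, and EPAS1 (0.97), JUP (0.96) and TM4SF1 (0.96) for SERPINB5. For SERPINB4 they were RPS6KA4, M6PR and CAB39 (0.95, 0.95 and 0.94) and for SERPINB3 RABEPK, SLC19A1 and SAPCD2 (each 0.90). Among the members, SERPINB1 and SERPINB5 (0.88), SERPINB4 and SERPINB7 (0.86) and SERPINB3 and SERPINB4 (0.80) were most alike, and SERPINB2 and SERPINB7 ran opposite (-0.88). These values describe 24 libraries that share cell line, time and depth, and those of SERPINB3 and SERPINB4 rest largely on the R8 libraries at 12 h.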

How the data were processed

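Poly(A) RNA of 24 libraries was sequenced with added spike-in RNAs as single-end 100 base reads. Per the labels and the study's methods, the authors aligned reads with HISAT2 2.1.0 to GRCh38/hg38 joined with the spike-ins and counted them per gene with featureCounts (Subread 1.5.3). Raw counts were deposited for 26645 gene entries, with 92 spike-ins beside them. The strand setting, the annotation release and the handling of reads that match several places are not given in the sources used here. The deposited normalized table and the deposited table of the authors' own comparisons (fold changes, p-values) were not used.

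Spike-ins aside, counts were fitted with edgeR 4.0.16 (R 4.3.3): filterByExpr (minimum count 10, minimum total 15), TMM factors, and a robust quasi-likelihood fit with a mean for each of 8 groups. Benjamini-Hochberg adjustment covered all 14741 genes tested, and an adjusted p under 0.05 was called. CPM are per TMM-effective library size. Intervals of pooled counts are exact conditional binomial intervals and cover counting error only. Exon lengths and positions come from GENCODE and promoter windows from RefSeq (GRCh38.p14), and sequences were aligned with Biopython 1.88. The code was tested on simulated data. Depth sets the precision, and genes with few reads have wide intervals.

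The members and lists were chosen with earlier results of these data known. All 8 members are named, and from each list up to 3 genes a direction per comparison, plus the 3 genes most like 5 of the members. LYPD1 and TGM2 (ranks beside SERPINB3 and SERPINB4), CTSL, CTSG and ELANE, and the marker genes of the sample check were named outside that rule. Some listed genes are not reported here. Alternatives were DESeq2 1.42.0 size factors, DESeq2's Wald test, spike-in totals as library sizes, no low-count filter, fits to the compared groups alone, a replicate block, a threshold of 0.01, summed SERPINB3 and SERPINB4 counts, and each library left out. Same-numbered libraries did not consistently deviate together, with mean correlations of -0.15 to 0.28 and no comparison in which every pair exceeded 0.1. Single pairs ranged from -0.39 (R8 at 12 h and 0 h) to 0.47 (R8 at 2 h and 0 h). The numbers were not taken to pair libraries.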

Additional observations from a re-analysis of the deposited data

How the results depend on the processing

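Leaving aside the comparisons that hold the 12 h values of R8, 26 values of the 7 tested genes were called. Recomputed 357 times in all over the alternatives, they kept their direction and their side of the threshold 336 times, lost the threshold 19 times and changed direction 2 times. Both of these reversals of a called value came at 2 h in MB468 with spike-in totals as library sizes, where SERPINB1 was at -0.081 and SERPINB5 at -0.11, and 1 of the 7 was then called instead of 2. Of 480 recomputed values that were not called, 35 changed sign, 10 of them with spike-in totals and 22 without 1 library, and 1 gained the threshold, which was SERPINB8 in MB468 at 2 h with spike-in totals (-0.51, adjusted p = 0.00214). With spike-in totals 0 of the 7 were called in R8 at 2 h, and at an adjusted p of 0.01 there was 1, against 2. In R8 at 0.5 h, a fit to the 2 groups compared called 3 in place of 5. Leaving out 1 library gave 3 to 5 in R8 at 0.5 h, the fewer without replicate 1 or 3 of R8 at 0 h, and 1 to 2 in R8 at 2 h, the fewer without replicate 2 or 3 of R8 at 0 h or replicate 2 of R8 at 2 h. The replicate block changed no call of a member, with 6 of the 7 called at 0 h in either fit. The cause of these changes was not tested.

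With spike-in totals the median of all genes was -0.31 between the lines at 0 h, -0.20, -0.42 and -0.23 in MB468 at 0.5, 2 and 12 h, and 0.26, 0.38 and 0.20 for the difference in response at these times, against 0.00, 0.01 at each time, and 0.00, 0.00 and -0.05 with TMM factors. The higher share of called genes went from 49.4% to 15% at 0 h, from 51.8%, 54.3% and 51% to 14%, 2.52% and 30% in MB468, and from 41.4%, 43.2% and 46.3% to 79.2%, 93% and 69.9% for the difference. They changed the number of genes called from 5000 to 3287 and from 2410 to 9511 in MB468 at 0.5 and 2 h, from 4967, 644 and 9036 to 2023, 180 and 5887 in R8 at 0.5, 2 and 12 h, and from 428 to 101 for the 0.5 h difference. An adjusted p of 0.01 left 1580 and 392 genes at 2 h in MB468 and R8, and 232 and 431 for the difference at 0.5 and 2 h. Without replicate 3 of R8 at 0 h 410 genes were called in R8 at 2 h, and without replicate 2 of R8 at 2 h 348.

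Depth limits SERPINB3 and SERPINB4, which had few reads outside R8 at 12 h, and SERPINB13, which had at most 11 reads in any library.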
